A study of Mus musculus with 7 samples.

Results

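The 3′ ends of protein-coding genes were examined in DNase-Seq data from mouse podocytes, the epithelial cells that cover the capillaries of the kidney filter. A gene end was the last annotated base of a protein-coding gene on chromosomes 1 to 19 in GENCODE vM21 (GRCm38, the mm10 build of the peak lists) with 500 nt on either side. Ends were kept when they lay more than 2500 nt from every transcription start site (TSS) of a protein-coding transcript. Promoters of noncoding transcripts were not excluded and can lie in the windows. Of 20807 gene ends, 16391 were kept, at 16340 distinct positions. Of the 4416 ends not kept, 2710 had a TSS of their own gene within 2500 nt and 1706 only a TSS of another gene. The nearest end kept lay 2502 nt from a TSS, the nearest not kept 2500 nt, and the median distance of the kept ends was 10781 nt. No measured value entered this choice.

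The cells were differentiated from a conditionally immortalised mouse podocyte line. A time of 36 h is recorded for each condition, which does not include the differentiation before it. Glucose was 5 mM in the control (NG). It was 25 mM in both other conditions, which received 50 nM of a mimic, either non-targeting (HG+NT) or of the microRNA miR-93 (HG+miR-93). Each condition had 2 replicates, and genomic DNA digested with less DNaseI served as the single input. DNaseI preferably cuts DNA that nucleosomes do not cover. For each condition 1 list of MACS2 peaks was deposited, apparently from both replicates together, with the fold over the input and a −log10 p of each peak. Since replicates could not be separated, conditions are compared without replicate error and without a test. The intervals given are 95% intervals for counting error alone, exact Poisson for fragments and summits and Wilson for shares of ends. Where 3 values stand together they follow the order NG, HG+NT, HG+miR-93. In a culture, fewer cells with an open site and less cutting per cell cannot be told apart.

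A transcript ends where the nascent RNA is cut and polyadenylated. The cut is placed by a hexamer, AATAAA or the weaker ATTAAA, which the cleavage and polyadenylation specificity factor binds shortly upstream of it, and by U- or GU-rich sequence downstream. RNA polymerase II runs on past the cut before it is released, and AT-rich DNA such as that around cleavage sites disfavours nucleosomes. MicroRNAs such as miR-93 pair through their seed, bases 2 to 8, with sites in the 3′ part of mRNAs.

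The annotated ends carried the sequence of a cleavage site. AATAAA was present in the last 50 nt of 9951 kept ends (60.7%), against 2.64% of the 50-nt stretches before the middle of 13008 of the same genes. A further 2246 ends (13.7%) held ATTAAA without AATAAA, and 4194 (25.6%) held neither. The first base of the last AATAAA lay 23 nt before the end at the median, with quartiles of 20 and 26 nt. The reverse complement of the miR-93 seed, GCACTTT, was found on the sense strand in the last 500 nt of 666 ends (4.06%) and before 2.81% of gene middles. The following lines show the mature miR-93-5p with its seed in capitals, the last 30 nt of 5 genes described below with the hexamer in capitals, and the stretch of the Abca1 end that holds a seed match in capitals. They were taken from RefSeq (GRCm38.p6) and read 5′ to 3′ on the strand of the gene. Ctdsp1 had a strong peak at its end in every list, Des in 1 list, Fn1 and Vegfa are genes that the study names, and Abca1 was lower in HG+miR-93.
miR-93-5p: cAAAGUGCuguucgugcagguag
Ctdsp1 (chr1:74397256-74397285, plus strand): tctaaacaAATAAAaaatacacaaaaagca
Des (chr1:75368550-75368579, plus strand): agaaatcaattgAATAAAatatgtatatgt
Fn1 (chr1:71585520-71585549, minus strand): gtgttttAATAAAaagatttacattccatg
Vegfa (chr17:46016993-46017022, minus strand): tgtATTAAAgaattgaattctgatctcaaa
Abca1 (chr4:53030787-53030816, minus strand): aAATAAAgctgtgacagtcctgctggtcta
Abca1 seed match (chr4:53030994-53031023, minus strand): cctcattccaaGCACTTTatgctgtctgta

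The lists held 846027 to 1036304 peaks, and almost every window was touched by a peak (16384 of 16391, 16389 and 16385). A gene end was therefore read at the summits, the positions of highest pileup, and not at the peaks' borders. The fragments at each summit and the local mean of the input were recovered from the listed fold and p, and the pileup is those fragments on the scale of the input, whose background mean was 1.43. The depth was 2.24, 3.85 and 5.15 times that of the input in the NG, HG+NT and HG+miR-93 lists, so the lists differed in depth as well as in condition. A peak was called strong when its −log10 p was at least that of the list's 50000th peak (1.81 in NG, 1.28 in HG+NT and HG+miR-93, ties included). The podocyte label was looked up at promoters (a TSS with 500 nt on either side). Actn4, an actin crosslinker of foot processes, stood at percentiles 82.5, 90.8 and 89.2 of all promoter pileups with a summit in the NG, HG+NT and HG+miR-93 lists, and the intermediate filament gene Vim at 68.6, 87.5 and 94.4. The slit diaphragm gene Nphs1 had a promoter summit in HG+NT alone, at percentile 31.5. Of 8 podocyte markers, 6 had a summit in NG, and of 9 markers of tubule, endothelium, leukocytes and hepatocytes, 8 had one. The latter ranged from percentile 1.77, of Ptprc and Alb, to 49.4, of endothelial Cdh5, over the lists.

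Summits were sparser at the gene ends than in their flanks before GC content was taken into account. Within 100 nt of the end, 0.402 summits per kb were listed in NG, 0.24 in HG+NT and 0.212 with the miR-93 mimic. From 500 to 2500 nt on either side of the same ends the density was 0.495, 0.357 and 0.367 per kb. The ratio was hence 0.812 (95% interval 0.769 to 0.857, 1324 summits), 0.673 (0.627 to 0.721, 792 summits) and 0.577 (0.535 to 0.621, 698 summits). This measure was chosen after the profile had been seen. Strong summits were at 0.635 (0.481 to 0.823), 0.508 (0.396 to 0.642) and 0.347 (0.26 to 0.453) of their flanks, from 57, 70 and 53 strong summits.

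**Figure D1:**
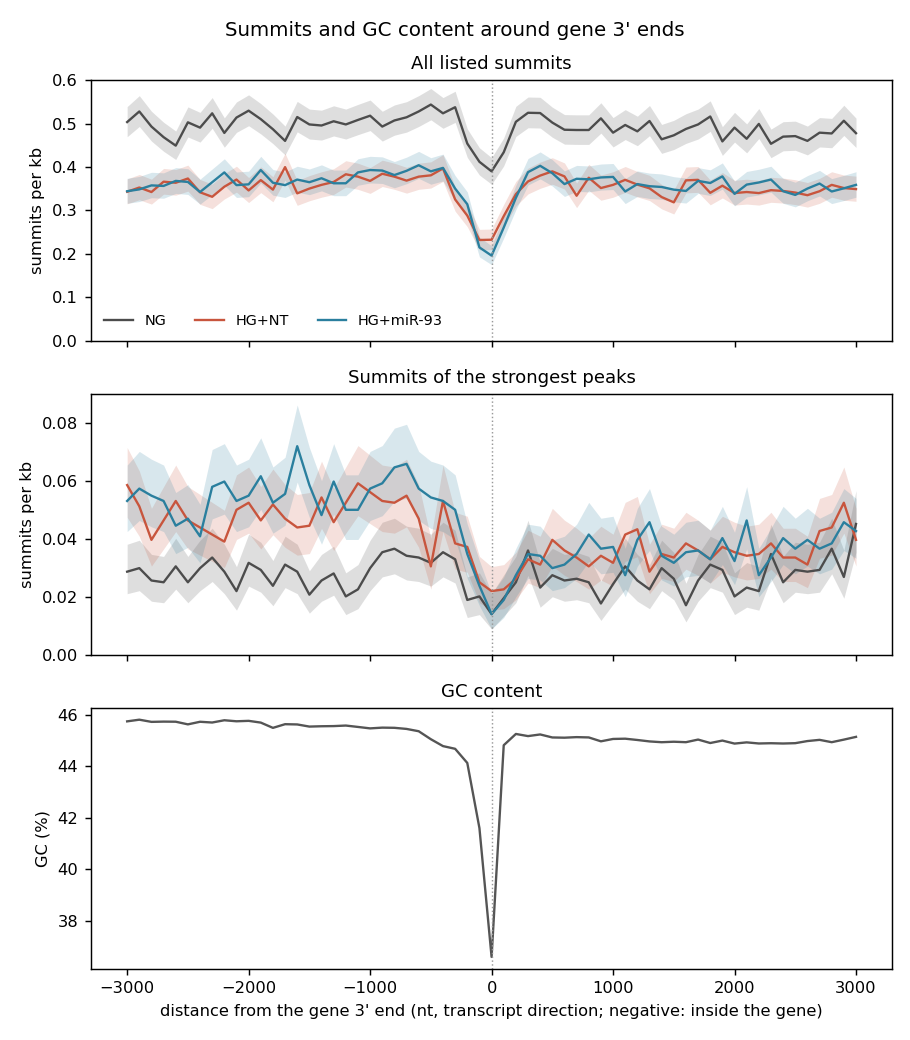
Summits per kb in 100-nt bins from 3000 nt before to 3000 nt after 16391 gene 3′ ends, for all listed peaks (top) and strong peaks (middle), with 95% Poisson intervals as bands, and the mean GC content of the same bins (bottom). All 3 lists have their lowest or near lowest bin at the end, where NG falls to 0.39, HG+NT to 0.232 and HG+miR-93 to 0.196 summits per kb, and GC content falls to 36.6%.

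The dip was narrow and nearly symmetric. In HG+miR-93 the density was 0.398 per kb in the bin centred 400 nt before the end, 0.314 at 200 nt, 0.215 at 100 nt, 0.196 at the end, 0.261 at 100 nt after it and 0.388 at 300 nt after it. In NG it went from 0.537 per kb at 300 nt before the end to 0.39 at the end and back to 0.504 at 200 nt after it. At other positions of the same genes the ratio was near 1. Over 11107 genes whose middle and whose position 5 kb downstream also lay over 2500 nt from every TSS, the ratio at the middle was 1.02 (0.964 to 1.09), 0.999 (0.931 to 1.07) and 0.984 (0.917 to 1.05). At 5 kb downstream it was 1.06, 0.962 and 0.973, with intervals that all include 1. At the 3′ ends of these genes it was 0.793, 0.658 and 0.545.

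Base composition moved with the dip. GC content averaged 36.4% over the last 100 nt of the genes and 42.6% over the first 100 nt downstream, against 45.6% and 45% from 500 to 2500 nt upstream and downstream. Of the 201-nt windows centred on the ends, 11.7% had less than 30% GC and 19.4% had 30% to 35%, against 3.54% and 8.09% of the flanking windows. The flanks were therefore weighted over 6 GC classes to the composition of the end windows. The ratio then was 1.02 (0.965 to 1.08), 0.867 (0.808 to 0.93) and 0.778 (0.721 to 0.837). With this weighting the interval of NG included 1, and those of both high glucose lists lay below it. The classes were broad, and differences in GC content within a class were not removed. The class of at least 50% GC held 10.6% of end windows and 29.3% of flanking windows. Windows of middle GC content had the lowest ratios. Between 45% and 50% GC the ratio was 0.974 (0.859 to 1.1), 0.662 (0.554 to 0.787) and 0.673 (0.569 to 0.791), and between 30% and 35% GC it was 1.22, 1.16 and 1.09. For strong summits, the weighted ratios were 0.989 (0.749 to 1.28), 1.12 (0.876 to 1.42) and 0.816 (0.611 to 1.07). The lists differed in depth and in their dependence on GC content along with the condition, and these cannot be told apart. How well short reads map in such sequence was not tested.

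Among the hexamer classes, the plain ratio in the high glucose lists was lowest at ends with AATAAA, and in NG at ends with ATTAAA alone (0.671, 0.57 to 0.784). At ends with AATAAA the ratio was 0.802 (0.748 to 0.859), 0.623 (0.567 to 0.683) and 0.524 (0.473 to 0.578). At ends with neither hexamer it was 0.923 (0.83 to 1.02), 0.795 (0.695 to 0.906) and 0.674 (0.584 to 0.775). With flanks weighted by GC, ends with AATAAA gave 1.03, 0.828 and 0.73, and ends with neither 1.08, 0.939 and 0.822, so that the intervals of both groups overlapped in each list (0.659 to 0.806 against 0.711 to 0.945 in HG+miR-93). Ends with ATTAAA alone gave weighted ratios of 0.853 (0.725 to 0.997), 0.894 (0.735 to 1.08) and 0.878 (0.721 to 1.06).

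Of the groups of ends examined, those facing another gene's end had the lowest weighted ratios in the high glucose lists. At 1444 ends a gene on the other strand ended within 1000 nt, and there the ratio weighted by GC was 0.448 (0.319 to 0.613, 39 summits) in HG+miR-93, 0.618 (0.465 to 0.807, 54 summits) in HG+NT and 0.962 (0.807 to 1.14, 136 summits) in NG. In the same order, the other 14947 ends gave 0.815 (0.754 to 0.879), 0.895 (0.831 to 0.962) and 1.02 (0.966 to 1.08). Facing ends share summits when they lie close together, so the intervals of the former are too narrow. At 2148 ends inside the body of another gene, the weighted ratio was 0.924, 0.712 and 0.725 in the NG, HG+NT and HG+miR-93 lists.

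**Figure D2:**
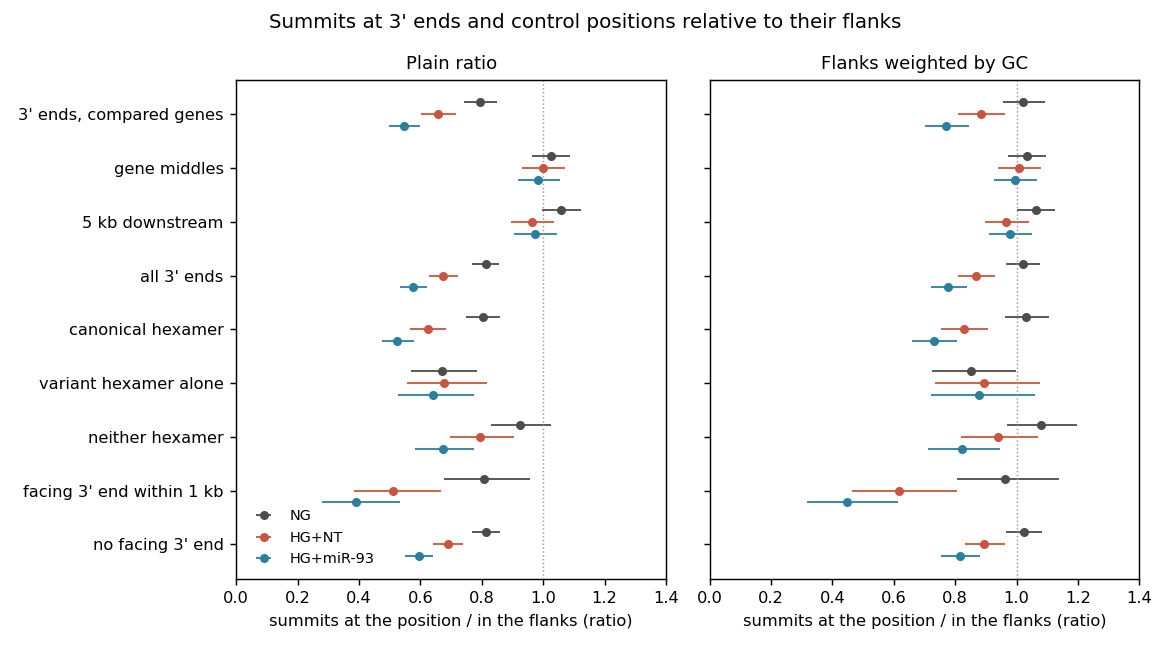
Ratio of summit density in 201 nt centred on a position to that in windows 600 to 2400 nt away, plain (left) and with the flanks weighted by GC content (right), with 95% Poisson intervals and with AATAAA as the canonical and ATTAAA as the variant hexamer. Gene middles and positions 5 kb downstream sit near 1 in each list, while 3′ ends sit at 0.812, 0.672 and 0.577 before weighting and at 1.02, 0.867 and 0.778 after it in the NG, HG+NT and HG+miR-93 lists.

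In both high glucose lists strong summits were fewer after the gene than in it. From 500 to 2500 nt inside the gene, strong summits numbered 0.0287 (0.0269 to 0.0306), 0.0485 (0.0461 to 0.0509) and 0.0567 (0.0542 to 0.0594) per kb. From 500 to 2500 nt downstream they numbered 0.0258 (0.0241 to 0.0276), 0.0351 (0.0331 to 0.0372) and 0.036 (0.034 to 0.0381). The intervals of both sides were apart in HG+NT and HG+miR-93 and overlapped in NG. Weighted to the GC content of the downstream side, the upstream density was 0.0275, 0.0428 and 0.0498 per kb. For all summits the sides were close, at 0.505 and 0.485 per kb for NG, 0.363 and 0.351 for HG+NT and 0.374 and 0.36 for HG+miR-93.

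Over the whole window, a strong summit was rare at gene ends. It was listed at 413 (2.52%, 2.29 to 2.77), 535 (3.26%, 3.0 to 3.55) and 530 (3.23%, 2.97 to 3.52) ends. Over all 1-kb tiles of the same chromosomes the share was 2.14%, 2.17% and 2.22%. In the 11107 genes compared at every position, 29.2%, 31.7% and 26.7% of 5′ ends had one, against 2.58%, 3.15% and 3.05% of 3′ ends, 2.26%, 3.11% and 3.12% of middles and 2.57%, 3.39% and 3.59% of positions 5 kb downstream. The intervals of 3′ ends and of gene middles overlapped in each list. A summit of any strength lay in 6982 (42.6%), 4886 (29.8%) and 4863 (29.7%) windows, in all 3 lists at 1692 ends and in none at 6277. Summits numbered 0.484, 0.326 and 0.326 per kb of window and 0.42, 0.343 and 0.364 per kb of tile, ratios of 1.15 (1.13 to 1.18), 0.949 (0.924 to 0.975) and 0.893 (0.87 to 0.918). Median pileups at these summits were 3.13, 2.86 and 2.92, from 7, 11 and 15 fragments. The 5′ ends of the compared genes had 7.15, 5.71 and 5.44.

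The GC content of the window ordered the ends. In the quartile of lowest GC (below 39%), 1.24%, 0.223% and 0.174% of ends had a strong summit. In the highest (above 48.5%), the shares were 3.9% (3.35 to 4.54), 8.24% (7.44 to 9.13) and 8.85% (8.02 to 9.76). Tiles in the same GC range had 5.05%, 9.73% and 10.4%, above the shares of these ends. Tiles include promoters of protein-coding transcripts, which the rule had removed from the ends. In the lowest range tiles had 0.974%, 0.0806% and 0.0608%, and in the 3 lower classes the shares of ends were above those of tiles in each list. CpG content went the same way. At 878 ends with an observed over expected CpG of at least 0.4, the shares were 4.9%, 6.49% and 7.74%, against 2.39%, 3.08% and 2.98% at the others. Facing ends, whose median GC content was 48.8% against 43.1%, had 3.05%, 5.19% and 4.78%. On chromosomes 8, 15 and 19 the share was 2.06%, 6.22% and 6.07%, and tiles of these chromosomes moved alike (1.91%, 5.63% and 5.79%).

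**Figure D3:**
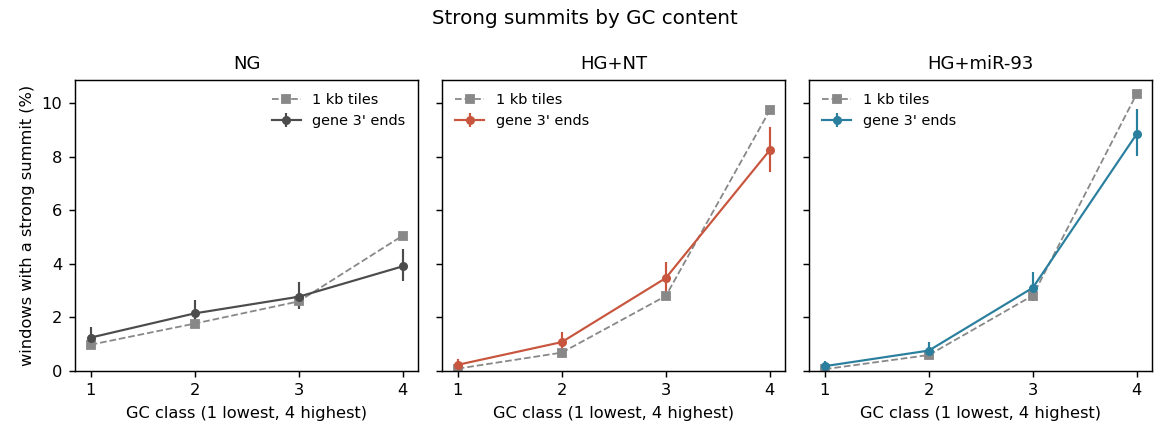
Share of windows with a strong summit in 4 classes of GC content bounded by the quartiles of the gene ends (39%, 43.5% and 48.5%), for gene 3′ ends with 95% Wilson intervals and for 1-kb tiles in the same classes. The share rises from 1.24% to 3.9% in NG and from 0.174% to 8.85% in HG+miR-93, and the ends lie below the tiles in the highest class of each list.

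Most ends with a strong summit had it in 1 list alone, and so did most such tiles. No list had a strong summit at 91.7% of ends and in 94.3% of tiles. Of the 1354 ends with a strong summit in any list, 1238 had it in 1 list, 108 in 2 and 8 in all 3. Ends strong in all 3 lists were 0.0488% of the ends, below the 0.112% of tiles. Strong in NG, HG+NT or HG+miR-93 alone were 2.23%, 2.68% and 2.65% of ends, against 1.79%, 1.58% and 1.65% of tiles. NG and HG+NT shared 28 of them, which were 6.78% of the NG and 5.23% of the HG+NT ends, and tiles shared 11.3% and 11.1%. The 2 high glucose lists shared 76, which were 14.2% and 14.3%, and tiles shared 21.1% and 20.7%. Here too the tiles hold the promoters that were removed from the ends, so the sharing is not compared like for like. Near strong summits, within 100 nt on both strands, the CTCF core (AGGGGGC or AGGTGGC, or their reverse complements) was present at 7.79% (5.54 to 10.8), 11.1% (8.66 to 14.2) and 11.4% (8.88 to 14.4) in the NG, HG+NT and HG+miR-93 lists. At the other summits of gene ends it was present at 7.12%, 6.14% and 6.2%, and in 201-nt windows over the genome at 3.89%. Strong summits had a median GC content of 50.2%, 53.2% and 54.2% over these bases, and the others 47.3%, 46.3% and 47.3%, and the part of composition in the share with the core was not tested. The AP-1 motif (TGANTCA) was present at 5.53%, 4.96% and 5.68% of strong summits, 5.53%, 6.5% and 5.6% of the others, and 5.95% of genomic windows. These matches are letters in a window and not shown to be bound.

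The 8 ends with a strong summit in all lists are named here after their values were seen. The highest was the end of Ctdsp1, which encodes a phosphatase of the RNA polymerase II C-terminal domain. Its pileup was 13 (8.67 to 18.6), 10.6 (7.64 to 14.4) and 8.16 (5.88 to 11), with input means of 3, 4 and 2.4. The summits lay 250, 198 and 133 nt downstream of the end, in a window of 57.7% GC. At the end of Lrrc24, a leucine-rich repeat gene whose end lies inside another gene, the pileup was 12.1, 8.83 and 7.97. Rhoc, a small GTPase, and Mov10, an RNA helicase, end within 1000 nt of each other on opposite strands and share 1 summit per list, with pileups of 8.49, 7.01 and 5.25. The end of Xpc, the sensor of damaged DNA in nucleotide excision repair, had 6.25, 5.19 and 4.28, also facing another gene's end. The others were Oc90 (5.81, 4.93 and 5.25), the nuclear receptor gene Rxrg (4.02, 4.16 and 4.28) and the ion channel gene Calhm3 (5.36, 4.16 and 5.83), each given for NG, HG+NT and HG+miR-93. At all 8 the intervals of the lists overlapped.

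The 10 ends with the highest mean percentile of pileup over the lists were also taken. Ctdsp1 and Lrrc24 were among them, and several others were high in the input too. Sfi1, which encodes a centrin-binding protein, had pileups of 56.7, 54.5 and 47.2, but input means of 62, 52 and 52, so its −log10 p was 0.12, 0.45 and 0.14. Tmem267 had 15.6, 12.2 and 10.7 over inputs of 13.6, 16 and 13.8. Rnf41, a RING-type ubiquitin ligase gene, had 8.93, 21.3 and 17.3 over 11, 12 and 12. The ends of Fam120a (10.7, 9.87 and 6.61), the LIM protein gene Fhl3 (10.3, 8.57 and 5.83), the immune checkpoint receptor gene Lag3 (9.83, 8.57 and 6.22), nonagouti (a; 9.83, 6.49 and 6.41) and the D-lactate dehydrogenase gene Ldhd (8.93, 8.31 and 7.19) had inputs of 3 to 10. A pileup of 10 was reached by 15, 9 and 3 ends.

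The genes that the study names showed little at their ends. Of 17 on these chromosomes, 15 ends were kept, and 8 of them (Jun, Junb, Fos, Gapdh, Col4a1, Ccn2, Dnm1l and Rock1) had no summit in any list. The end of Fn1, which encodes the matrix protein fibronectin, had a summit in HG+miR-93 alone, 345 nt before the end, with a pileup of 3.11 (1.78 to 5.05). The end of Vegfa, the podocyte-derived growth factor of the glomerular endothelium, had one in HG+miR-93 alone, 340 nt downstream, with 4.08 (2.53 to 6.24). The end of Des, which encodes desmin, an intermediate filament protein raised in injured podocytes, had a strong summit in HG+NT alone, 316 nt before the end, with 4.16 (2.37 to 6.75). Nphs1, nephrin, had 3.13 (1.26 to 6.44) in NG alone. Col4a3, a collagen of the basement membrane, had 1.82 in HG+NT alone. The absence of a summit does not mean that no fragments were there, since each of these windows was covered by a peak whose summit lay outside it. The exception was Rps6ka4, the gene of the kinase Msk2. Its end had 399 fragments and a pileup of 178 (161 to 197) in NG, 228 nt before the end, and no peak in HG+NT or HG+miR-93. The input mean there was 112, far above the background mean of 1.43, and the listed fold over the input was only 1.59. With so high an input, this summit is not shown to be an open site lost in high glucose. The cause was not tested.

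Podocyte genes and genes of the cleavage machinery were looked up as lists. Of 22 kept ends of podocyte genes, 10, 3 and 4 had a summit. Strong were those of the formin gene Inf2 and of the basement membrane collagen gene Col4a4 in NG, with pileups of 4.91 (2.45 to 8.79) and 4.47 (2.14 to 8.21), and none in either high glucose list. Over all ends, a summit of any strength lay in 42.6%, 29.8% and 29.7% of windows, and a strong one in 2.52%, 3.26% and 3.23%. Lists this short cannot be read against the strong shares. Of 14 kept ends of cleavage and polyadenylation genes, 7, 5 and 7 had a summit, none of them strong. Clp1, a subunit of cleavage factor II, had 2.68, 2.86 and 1.94, and Fip1l1, a subunit of the hexamer-binding complex, had 3.57, 2.34 and 1.94 in the NG, HG+NT and HG+miR-93 lists. Of the podocyte and cleavage genes, 2 and 3 ends could be compared between HG+NT and NG, and 2 and 4 between the mimics. None was called, and these numbers are too small to read against the shares called over all ends given below.

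HG+NT was compared with NG at the 2862 ends that had a summit in both lists. Glucose and transfection of a mimic changed together, and their effects cannot be told apart. An end was called when its pileups differed at least 2-fold, after centring on the median ratio of all tiles, and the intervals did not overlap. In HG+NT 2 ends were called higher (0.0699%) and 3 lower (0.105%), and of 436498 tiles 0.0532% were called higher and 0.0747% lower. The calls were few, and their shares lay near those of the tiles, but the rule could hardly call a typical end. At the NG median of 7 fragments the interval was 1.26 to 6.44. An HG+NT summit of 2 fragments had an upper limit of 1.88, so even that would not be called lower. The limit of 6.44 lay near the 99th percentile of HG+NT pileups (6.75), so a higher call needed a rare pileup. By the 2-fold ratio alone, 189 ends were higher and 159 lower. Few calls therefore do not show that few ends changed. The centring took off the tiles' median of -0.13. The median log2 ratio of HG+NT over NG was 0.05 and, without centring, -0.08, with centred quartiles of -0.36 and 0.45. It followed GC content, from -0.24 in the lowest to 0.24 in the highest quartile, and the tiles in these ranges had -0.33 and 0.22. On chromosomes 8, 15 and 19 it was 0.35, and 0.27 over tiles.

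The end of Best2, a bestrophin chloride channel gene on chromosome 8, had a pileup of 1.34 (0.276 to 3.92) in NG and 6.23 (3.99 to 9.27) in HG+NT, a log2 ratio of 2.35. The NG summit lay 211 nt after the end and the HG+NT summit 375 nt before it, so the ratio is between different sites. Rnf41 had 8.93 (5.46 to 13.8) in NG and 21.3 (16.9 to 26.4) in HG+NT, a log2 ratio of 1.38, over the high input given above. Lower in HG+NT was the end of Nuak2, an AMPK-related kinase gene, with 9.83 (6.16 to 14.9) in NG and 3.12 (1.61 to 5.44) in HG+NT, where an overlapping peak with its summit 1673 nt downstream had 9.35. At the ends of Slc24a5, a cation exchanger gene, and Ntrk3, the receptor gene of neurotrophin 3, the pileup was 4.47 (2.14 to 8.21) in NG and 0.519 (0.0629 to 1.88) in HG+NT, from 2 fragments. At Ntrk3 the summits lay 445 nt before and 108 nt after the end. All 5 have no replicate check. When the highest of all overlapping peaks was read, the log2 ratio was 0.93 for Best2, 1.38 for Rnf41, 0.06 for Nuak2, -1.39 for Slc24a5 and -0.65 for Ntrk3.

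The miR-93 mimic was compared with the non-targeting mimic at the 2530 ends with a summit in both of those lists. In HG+miR-93, 1 end was called higher (0.0395%) and 2 lower (0.0791%). Of 443784 tiles 0.0599% were called higher and 0.078% lower, close to the shares of the ends. Here too the rule could hardly call a typical end. At the HG+NT median of 11 fragments the interval was 1.43 to 5.11, and an HG+miR-93 summit of 3 fragments still overlapped it, with an upper limit of 1.7. By the 2-fold ratio alone, 89 ends were higher and 120 lower. The median log2 ratio was 0.03 and, without centring, -0.02, with centred quartiles of -0.28 and 0.33. At 113 ends with a seed match in the last 500 nt it was 0.01, and at 2417 without one 0.04. Strong summits lay at 2.85% (1.83 to 4.41), 3.9% (2.68 to 5.66) and 3.75% (2.56 to 5.48) of the 666 ends with a match in the NG, HG+NT and HG+miR-93 lists, and at 2.51%, 3.24% and 3.21% of the others. The intervals include the values of the ends without a match. The dip at ends with a match, weighted by GC, was 0.985 (0.738 to 1.29), 0.905 (0.63 to 1.26) and 0.637 (0.412 to 0.94), and these intervals overlap those of the ends without one.

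The end of Csf2rb, the common beta chain of the interleukin 3 and GM-CSF receptors, was higher in HG+miR-93, with a pileup of 1.82 (0.731 to 3.75) with the non-targeting mimic and 5.44 (3.62 to 7.86) with the miR-93 mimic. Those summits lay 230 nt before and 396 nt after the end. In NG it had 2.68 (0.983 to 5.83). Abca1, the cholesterol exporter, was lower, with 3.38 (1.8 to 5.77) with the non-targeting mimic and 0.583 (0.12 to 1.7) with the miR-93 mimic, and no summit in NG. The HG+NT summit lay 383 nt after the end and the HG+miR-93 summit 230 nt before it, beside the seed match at 225 nt before the end, so these pileups are from different sites. Stt3b, a catalytic subunit of the oligosaccharyltransferase, had 4.16 (2.37 to 6.75) and 0.777 (0.212 to 1.99), from 16 and 4 fragments, at summits 390 nt after and 363 nt before the end. Read at overlapping peaks, the log2 ratios of -2.48 for Abca1 and -2.36 for Stt3b were -0.76 and -0.13, and that of 1.64 for Csf2rb was -0.16.

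**Figure D4:**
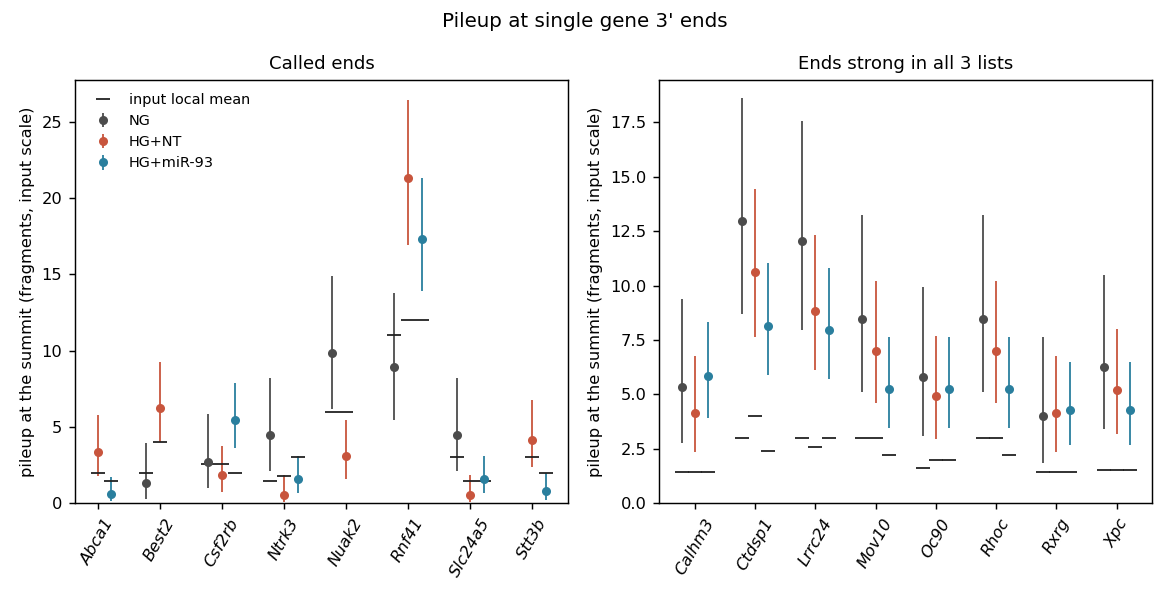
Pileup at the summit, in fragments on the scale of the input, of the 8 ends called in either comparison (left) and the 8 ends strong in all lists (right), with 95% exact Poisson intervals and the input's local mean as dashes. The called ends fall to values such as 0.519 for Slc24a5 in HG+NT, while intervals of the lists overlap at each end on the right. At Rxrg, Calhm3 and Lrrc24 the summits of the lists lie at different sites.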

How the data were processed

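DNase-Seq of 3 conditions (2 replicates each) and 1 input was analysed. Per the study's methods, the authors trimmed reads with TrimGalore!, aligned them to mm10 and filtered duplicates. The submitters' notes name CASAVA 1.8.2, Bowtie and MACS2. The deposited fold is a ratio, which the values show to be (pileup + 1)/(local input mean + 1). The deposited −log10 p is a Poisson value of the same numbers. The deposited −log10 q was used as listed and was not recomputed. Settings of the peak caller are not given in the sources used here.

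The fragments and the input mean, the latter a background value or a multiple of 0.02, were solved from fold and p for at least 99.9997% of peaks, uniquely for at least 99.8%. Mismatched pairs were solved for at most 0.16%. Windows, calls and solutions were tested on simulated data. Named were the study's genes, the 10 ends of highest mean percentile and up to 5 called ends per direction. Of the study's genes, 1 with a kept end is not reported here. The members and lists were chosen with earlier results of these data known. Alternatives changed the window, TSS distance, peak set, scale, centring and call rule. Computing used scipy 1.17.1, pandas 2.3.3 and numpy 2.4.6 under Python 3.11.15, with figures from matplotlib 3.10.9.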

Additional observations from a re-analysis of the deposited data

How the results depend on the processing

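No paired analysis was possible because each list pools the replicates of its condition, and for the same reason no replicate was left out. Values are given below in the order NG, HG+NT, HG+miR-93. Reading every overlapping peak in place of the summits moved the density relative to tiles to 1.045, 1.017 and 1.008 and the share of ends with a strong peak to 12.69%, 24.43% and 27.06%. Windows of 250 nt gave densities of 1.045, 0.8029 and 0.7212 and shares of 0.9944%, 1.33% and 1.19%. Windows of 1000 nt gave shares of 5.381%, 7.413% and 8.09%, and densities of 1.01 with the non-targeting mimic and 0.9691 with the miR-93 mimic. At a −log10 p of at least 2, densities were 1.196, 1.155 and 1.367 and shares 0.5735%, 0.3661% and 0.4088%. At a −log10 q of at least 2 almost nothing was left, with densities of 2, 0 and 0 and shares of 0.006101%, 0% and 0%. The 20000 strongest peaks gave shares of 1.165% with the non-targeting mimic and 1.177% with the miR-93 mimic, and in NG ties made them equal to the 50000 strongest. Without chromosomes 6, 8, 15 and 19 these shares were 2.815% and 2.867%, and ends over 5000 nt from a TSS had a density of 0.9203 in HG+miR-93.

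The median log2 ratio of HG+NT over NG was -0.2016 at a −log10 p of at least 2 and -0.08191 without centring, which is below 0. Ends called higher in HG+NT numbered 112 with overlapping peaks, 0 with 250 nt, 4 with 1000 nt, 0 at a −log10 p of at least 2, 1 without the 4 chromosomes, 120 by the deposited fold, 1 at a 3-fold ratio and 189 by the 2-fold ratio alone. Ends called lower numbered 43 with overlapping peaks, 0 with 250 nt, 0 at a −log10 p of at least 2, 0 without the 4 chromosomes, 102 by the deposited fold, 7 without centring and 159 by the ratio alone. In HG+miR-93 against HG+NT, ends called higher numbered 41, 0 and 7 with overlapping peaks, 250 nt and 1000 nt, 0 at a −log10 p of at least 2, 0 without the 4 chromosomes, 59 by the deposited fold, 0 without centring and 89 by the ratio alone. Ends called lower numbered 59, 0 and 6 with these windows, 0 at a −log10 p of at least 2, 51 by the deposited fold and 120 by the ratio alone. The deposited fold and the ratio alone use no interval. With overlapping peaks the log2 ratio turned to 0.05842 for Nuak2 and to -0.1561 for Csf2rb. The cause was not tested.

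The measure of the dip and its alternatives were chosen after seeing the data. A core of 250 nt gave 0.8865, 0.7703 and 0.7155, strong peaks 0.6351, 0.508 and 0.3466, and the GC make-up of the end windows 1.019, 0.8671 and 0.7775. Ends with AATAAA gave 0.6233 with the non-targeting mimic and 0.5241 with the miR-93 mimic. The direction of the dip held under each of these except that NG reached 1.019 with GC weighting. It did not hold for strong peaks with GC weighting in HG+NT, at 1.12 (0.876 to 1.42). There the intervals of NG (0.749 to 1.28) and HG+miR-93 (0.611 to 1.07) also included 1.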
